A study of Mus musculus with 12 samples.

Results

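Water handling genes of the mouse kidney were followed across 3 treatment groups: 7 aquaporins (Aqp1, Aqp2, Aqp3, Aqp4, Aqp6, Aqp7 and Aqp11), the vasopressin receptors Avpr2 and Avpr1a, and the urea transporter gene Slc14a2. They were taken by name, through their Ensembl identifiers, and made up 10 of the 57180 genes counted. Poly(A) RNA came from kidney tissue of 12 young adult male C57BL/6J mice. They were injected intraperitoneally once a day for 28 days with cannabidiol (CBD), a non-intoxicating compound of Cannabis sativa, at 10 or 20 mg/kg b.w., or with the vehicle alone (saline with a Tween detergent, the control group). Each group held 4 mice, with 1 library per mouse. The counts on genes ranged from 15417867 to 23532088 per library, between 17946614 and 23532088 in the control group, 15417867 and 21977253 in the 10 mg group and 16306563 and 18219064 in the 20 mg group. The comparisons asked whether either dose of CBD shifted the expression of these genes.

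Aquaporins are membrane channels that let water, and in some members glycerol, cross cell membranes along an osmotic gradient. Aqp1 carries the bulk water reabsorption of the proximal tubule and the descending thin limb. In the collecting duct, vasopressin binds the V2 receptor (Avpr2) of principal cells, cAMP rises, and vesicles with Aqp2 fuse with the apical membrane, while Aqp3 and Aqp4 let the water out on the basolateral side. Over longer times the same signal raises Aqp2 transcription, and it also activates the urea transporters encoded by Slc14a2 in the inner medulla.

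Some libraries stood apart within their groups. Counts on mitochondrial genes made up 5.77% of the total in control replicate 2, 3.53% and 4.55% in replicates 1 and 3 of the 10 mg group and 5.54% in replicate 3 of the 20 mg group, against 12.8% to 23.4% in the other 8 libraries. Each group thus held at least 1 library under 10%. Whether the share was related to the treatment was not tested. Fold changes of members that moved clearly without these 4 libraries are given with and without them.

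Compared per transcript length, the genes spanned several orders of magnitude in the control kidneys. Aqp1 was the most abundant at 529 ± 89.2 transcripts per 1000000 (TPM; SD, n = 4), followed by Aqp3 at 187 ± 68.6 TPM. Aqp6 at 50.4 ± 25.1 TPM and Aqp2 at 47.5 ± 30.5 TPM did not differ beyond their spread. The next level held Slc14a2 at 16.6 ± 11.5 TPM, Aqp11 at 12.1 ± 2.01 TPM, Aqp7 at 11.9 ± 1.88 TPM and Avpr1a at 11.9 ± 3.19 TPM, which overlapped each other. Aqp4 was lower at 8.37 ± 2.07 TPM, but its range of 5.66 to 10.3 TPM overlapped those of Slc14a2, Aqp11, Aqp7 and Avpr1a. Avpr2 was the lowest at 0.117 ± 0.0962 TPM. With the length of the longest transcript in place of all exons, Aqp11 was at 17.3 TPM and Aqp7 at 14.8 TPM, which changed the gaps between these genes and kept their order.

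**Figure D1:**
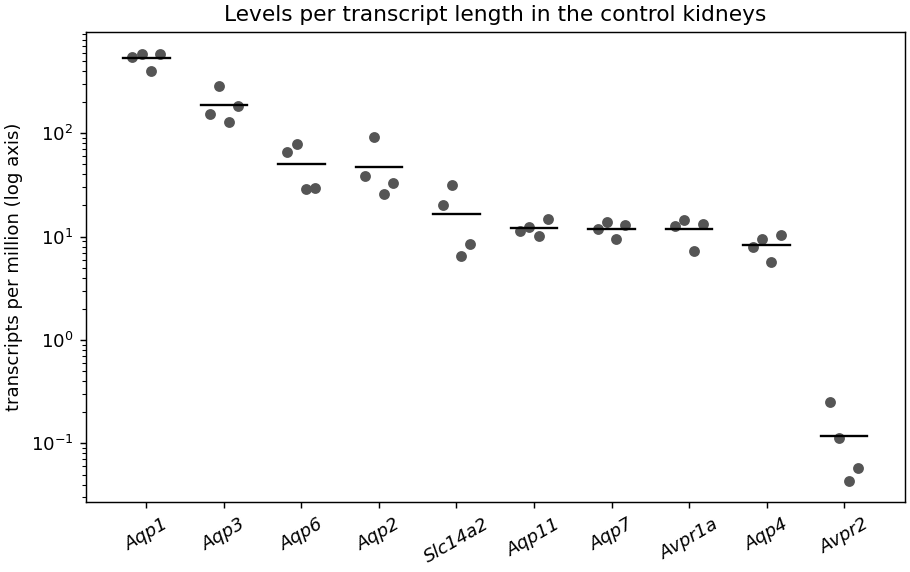
Level of each gene per transcript length in the control kidneys, in TPM on a log axis. Points are the 4 control libraries and the line is their mean. Aqp1 and Aqp3 lie above the rest. Avpr2 lies far below all other genes, from counts that are uncertain because its exons overlap those of Arhgap4.

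No member passed the threshold of an adjusted p under 0.1 in edgeR's quasi-likelihood test at either dose. Of the 10 genes, 9 passed the filter on low counts. Avpr2 did not. Among the 9, edgeR called 0 at 10 mg against control, where it called 5 of all 17163 genes (0.0291%), and 0 at 20 mg, where it called 52 (0.303%). Between the doses it called 0 members and 0 genes (0%), and for the mean of both doses 0 members and 24 genes (0.140%). At these background shares a list of this size would hardly hold a called gene. At an unadjusted p under 0.05 the counts were 1 member at 10 mg, 1 at 20 mg, 0 between doses and 1 for the mean of both doses, in each case Avpr1a, beside 973, 1450, 1083 and 1209 of all 17163 genes, so 1 of 9 is near the background. DESeq2 called 1 member, again Avpr1a, at 20 mg (of 167 among 16501 genes) and for the mean of both doses (of 117 among 15743) and 0 in the other comparisons, and limma-voom called 0 in all 4.

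The estimated changes went both ways. At 10 mg the log2 fold change was above 0 for 4 members and below 0 for 5, with a median of -0.03, beside 0.01 over all genes tested. At 20 mg the split was again 4 and 5, with a median of -0.13 beside 0.01 over all genes. Both doses were compared with the same control mice, so their signs are not independent. In no member did the 4 treated libraries lie wholly above or below the 4 controls. Over all genes tested, groups without overlap were found in 3.19% at 10 mg, 5.30% at 20 mg and 3.10% between the doses.

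**Figure D2:**
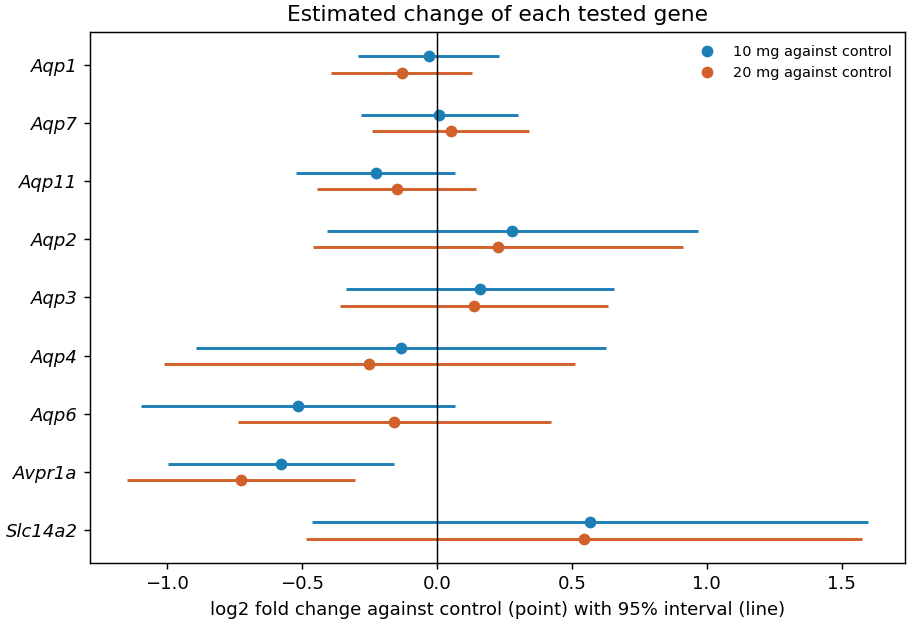
Log2 fold change against control for the 9 tested genes at 10 mg (blue) and 20 mg (orange). Points are edgeR estimates and lines are 95% intervals, which include 0 for every gene except Avpr1a.

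**Figure D3:**
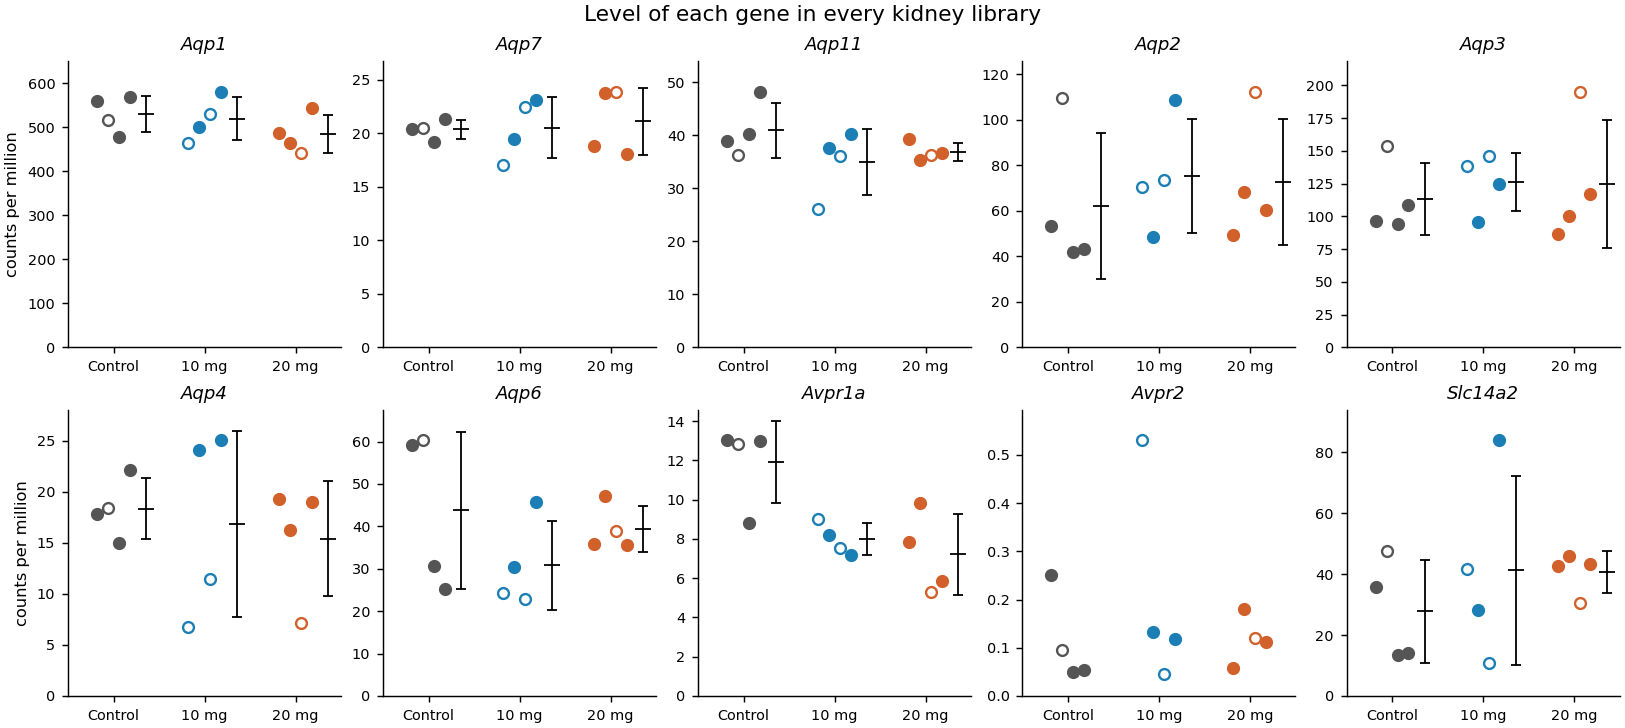
CPM of each gene in all 12 libraries, with open symbols for the 4 libraries under 10% mitochondrial counts. Black marks give the mean and SD of each group of 4 mice, left out for Avpr2. The groups overlap in every gene, and Avpr1a has 3 controls above all treated libraries.

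Among the channels outside the collecting duct, Aqp1 was the steadiest gene. Its counts per 1000000 after TMM normalization (CPM) were 559, 516, 478 and 569 in control replicates 1 to 4, 464, 501, 531 and 581 at 10 mg, and 488, 464, 442 and 544 at 20 mg. The groups overlapped, although 3 of the 4 libraries at 20 mg lay under 500 CPM and 3 of the 4 controls above it. Log2 fold changes were -0.03 at 10 mg and -0.13 at 20 mg (SE 0.12 for both). The 95% interval of the fold at 20 mg ran from 0.762 to 1.10, so a larger loss than that lay outside it. The SD within groups, 0.13 on the log2 scale, was smaller than that of all but 5.91% of the genes tested, for which the median was 0.29.

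Aqp7, a water and glycerol channel of the brush border in the straight proximal tubule that is also the glycerol channel of adipocytes, varied nearly as little. It ranged from 17.0 to 23.9 CPM over the 12 libraries, with log2 fold changes of 0.01 at 10 mg and 0.05 at 20 mg (SE 0.14). The 95% interval of its fold at 20 mg was 0.848 to 1.27. Aqp11, an intracellular channel of the endoplasmic reticulum in proximal tubule cells, ranged from 26.0 to 48.2 CPM. Its log2 fold change was -0.23 at 10 mg (edgeR adjusted p = 0.892, exact permutation p = 0.257) and -0.15 at 20 mg (SE 0.14 for both). It was -0.11 at 10 mg without replicate 1 of that group, -0.06 at 20 mg without control replicate 4, and -0.13 at 10 mg without the libraries under 10% mitochondrial counts. The lowest Aqp11 value came from replicate 1 of the 10 mg group and the highest from control replicate 4.

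In the collecting duct, Aqp2, the apical channel that vasopressin sends to the membrane, was spread widely within every group. It measured 53.1, 109, 42.1 and 43.1 CPM in the controls, 70.5, 48.3, 73.5 and 109 CPM at 10 mg, and 49.3, 68.1, 112 and 60.4 CPM at 20 mg. Each group had 1 library well above its other 3, and the ranges coincided. Against control it was at 0.28 (log2) at 10 mg and 0.23 at 20 mg (SE 0.32), with edgeR adjusted p of 0.935 and 0.900. The 95% interval of the fold at 20 mg was 0.727 to 1.88, too wide to tell a moderate change from none. Single libraries moved the estimate in both directions. Without control replicate 2 it was 0.70 at 10 mg and 0.65 at 20 mg, without replicate 4 of the 10 mg group 0.05 at 10 mg, and without replicate 3 of the 20 mg group -0.07 at 20 mg. Without the libraries under 10% mitochondrial counts it was 0.76 at 10 mg (SE 0.23, edgeR adjusted p = 0.455) and 0.36 at 20 mg (edgeR adjusted p = 0.632).

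Aqp3, the basolateral partner of Aqp2, measured 96.7, 153, 94.5 and 108 CPM in the controls, 139, 95.7, 146 and 125 CPM at 10 mg and 86.3, 100, 195 and 117 CPM at 20 mg. The 4 highest values were those of the 4 libraries with few mitochondrial counts. The log2 fold change was 0.16 at 10 mg and 0.14 at 20 mg (SE 0.23), with -0.16 at 20 mg without replicate 3 of that group, and 0.34 and 0.32 without control replicate 2. Without the libraries under 10% mitochondrial counts they were 0.14 and 0.02. Aqp4, the second basolateral channel, measured 17.9, 18.5, 15.0 and 22.2 CPM in the controls, 6.76, 24.1, 11.5 and 25.1 CPM at 10 mg and 19.3, 16.3, 7.20 and 19.0 CPM at 20 mg. Its 3 lowest values were those of the treated libraries under 10% mitochondrial counts, while the control library under 10% lay among the other controls. Aqp4 was at -0.13 (log2) at 10 mg and -0.25 at 20 mg (SE 0.36). Without the libraries under 10% it was 0.42 at 10 mg and -0.01 at 20 mg, and without single libraries it ranged from -0.40 to 0.13 at 10 mg and from -0.38 to -0.02 at 20 mg.

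Aqp2, Aqp3 and Aqp4 differed with the mitochondrial share. With low share as a factor beside the groups in edgeR, Aqp2 was 1.55-fold higher in the 4 libraries (adjusted p = 0.0256), with 91.4 ± 22.5 CPM against 59.1 ± 21.8 CPM in the other 8. Aqp3 was 1.54-fold higher (edgeR adjusted p = 0.000639), with 158 ± 25.2 against 103 ± 12.8 CPM and no overlap, and Aqp4 was 1.87-fold lower (adjusted p = 0.00408), with 11.0 ± 5.43 against 19.8 ± 3.63 CPM. The other 6 tested members did not pass the threshold. The same factor called 6354 of 17163 genes (37.0%), so 3 of 9 is near the background and says nothing particular about water channels. For these 3 genes base composition ran alongside, as the longest transcript of Aqp4 had a GC content of 41.1%, against 56.3% for Aqp2 and 53.0% for Aqp3. Among the others, Aqp11 with 44.8% was at -0.21 (log2) in the low libraries, the same way as Aqp4, whereas Aqp6 with 56.4% and Aqp1 with 55.8% were at -0.06 and -0.12. Over all tested genes with a transcript, split into 4 equal groups by GC content, the median log2 difference between low and other libraries was -0.19 in the group of genes with the lowest GC and 0.18 in the group with the highest GC. The part of GC content and RNA quality in these differences was not tested.

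**Figure D4:**
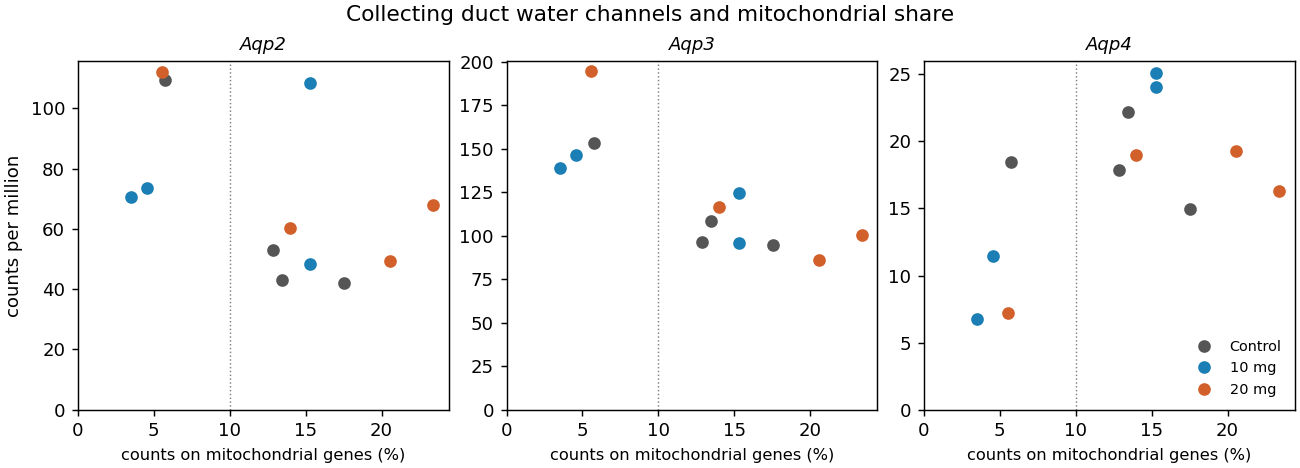
CPM of Aqp2, Aqp3 and Aqp4 against the percentage of counts on mitochondrial genes in the 12 libraries, coloured by group. The dotted line marks 10%. The 4 libraries left of it hold the 4 highest Aqp3 values and the 3 lowest Aqp4 values.

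Aqp6, an anion-permeable channel in the vesicles of intercalated cells, lies 14058 bases downstream of Aqp2 on chromosome 15 (99499075 to 99503358 for Aqp6 and 99476936 to 99485016 for Aqp2 in GRCm39, both on the + strand). Aqp7 and Aqp3 are likewise neighbours, 44510 bases apart on chromosome 4. Aqp6 measured 59.1, 60.3, 30.6 and 25.2 CPM in the controls, 24.2, 30.5, 22.8 and 45.7 CPM at 10 mg and 35.8, 47.1, 38.8 and 35.6 CPM at 20 mg. The controls split into a high and a low pair, and the 20 mg libraries lay between them. Aqp6 was at -0.51 (log2) at 10 mg (SE 0.27, edgeR adjusted p = 0.872, exact permutation p = 0.200) and -0.16 at 20 mg, and the difference between doses was 0.36 (SE 0.27, edgeR adjusted p = 0.878). Without the libraries under 10% mitochondrial counts Aqp6 was at -0.01 at 10 mg and 0.04 at 20 mg, and the difference between doses was 0.06. Without single libraries the value at 10 mg ranged from -0.77 to -0.32. The sign at 20 mg turned without control replicate 1 (0.02) or control replicate 2 (0.03).

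The promoters of Aqp2 and Aqp6 are shown because the genes are neighbours and Aqp2 is the classic transcriptional target of vasopressin through cAMP, and that of Avpr1a because it had the smallest p of the members. They span 250 bases before to 50 bases after the start site, 5′ to 3′ on the coding strand, from RefSeq with build GRCm38.p6, which had 9 entries for 8 of the 10 genes. Capitals mark the core of the cAMP response element (TGACG, or CGTCA on the other strand) and the E-box CACGTG, which reads the same on both strands.
Aqp2, chr15:99578806-99579105, + strand: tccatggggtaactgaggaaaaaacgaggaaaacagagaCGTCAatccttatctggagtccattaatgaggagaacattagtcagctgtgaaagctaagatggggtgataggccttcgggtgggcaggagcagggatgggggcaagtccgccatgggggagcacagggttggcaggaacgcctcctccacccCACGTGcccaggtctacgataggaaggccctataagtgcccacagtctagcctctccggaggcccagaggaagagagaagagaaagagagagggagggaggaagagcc
Aqp6, chr15:99600950-99601249, + strand: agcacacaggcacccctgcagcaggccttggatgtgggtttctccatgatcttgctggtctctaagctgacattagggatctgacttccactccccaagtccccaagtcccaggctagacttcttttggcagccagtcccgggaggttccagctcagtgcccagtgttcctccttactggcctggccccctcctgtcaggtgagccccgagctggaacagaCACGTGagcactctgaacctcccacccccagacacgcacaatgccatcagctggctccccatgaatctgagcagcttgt
Avpr1a, chr10:122448249-122448548, + strand: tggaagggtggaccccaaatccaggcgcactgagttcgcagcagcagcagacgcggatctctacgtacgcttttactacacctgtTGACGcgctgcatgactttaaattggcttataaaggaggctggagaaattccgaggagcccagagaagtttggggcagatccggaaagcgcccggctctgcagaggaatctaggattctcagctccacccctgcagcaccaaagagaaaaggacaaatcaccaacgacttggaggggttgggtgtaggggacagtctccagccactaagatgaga
The Aqp2 window held the cAMP element letters 211 bases before the start and an E-box 58 bases before it. The Aqp6 window held an E-box 29 bases before the start, and the Avpr1a window the cAMP element letters 165 bases before it. Of 32851 mouse promoters of this length, 20.8% held the cAMP element letters and 7.15% the E-box. The other 6 entries held neither. A match describes the sequence and does not show that a factor binds there.

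Avpr1a, the V1a receptor that acts through calcium and is known from vascular smooth muscle and from cells of the distal nephron, came closest to a change. It measured 13.0, 12.8, 8.81 and 13.0 CPM in the controls, 9.02, 8.18, 7.54 and 7.16 CPM at 10 mg and 7.85, 9.82, 5.28 and 5.87 CPM at 20 mg. Control replicates 1, 2 and 4 lay above all 8 treated libraries, and control replicate 3 lay among them. The mean was 11.9 ± 2.07 CPM in the controls, 7.98 ± 0.811 CPM at 10 mg and 7.20 ± 2.06 CPM at 20 mg (SD, n = 4 each).

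Against control Avpr1a was at -0.58 (log2) at 10 mg (SE 0.20, edgeR adjusted p = 0.812) and -0.73 at 20 mg (SE 0.20, edgeR adjusted p = 0.297). For the mean of both doses it was -0.65 (SE 0.17, edgeR adjusted p = 0.287), with a 95% interval of the fold from 0.498 to 0.813. The two-sided exact permutation test gave p = 0.0571 at each dose, where the smallest p that 4 mice against 4 allow is 0.0286. The doses did not differ from each other beyond the error (log2 fold change -0.15, SE 0.20). The 20 mg comparison was called under 4 of 26 alternative settings: DESeq2 (adjusted p = 0.0624), edgeR without a filter on low counts (0.0270), and edgeR with the mitochondrial share as a covariate (0.0349) or low share as a factor (0.0770). In that order, these settings called 167 of 16501, 416 of 40012, 1386 of 17163 and 293 of 17163 genes. The main fit called 52 of 17163, so each of the 4 settings called more genes in general. Adjusted p over all 26 settings ranged from 0.0270 to 0.599, and the log2 fold change from -0.91 to -0.57. Without the libraries under 10% mitochondrial counts it was -0.60 at 10 mg and -0.57 at 20 mg.

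Markers of several cell types differed between the same libraries, and in bulk tissue fewer cells of a type and less RNA per cell cannot be told apart. The 5 adipocyte markers summed to 209, 259, 96.0 and 229 CPM in the controls, 135, 126, 67.8 and 89.7 CPM at 10 mg and 67.9, 114, 92.1 and 104 CPM at 20 mg. As with Avpr1a, control replicate 3 lay among the treated libraries and the other controls above them. The 4 distal convoluted tubule markers showed the same low control, with 1001, 953, 627 and 1036 CPM in the controls against 672 to 817 CPM at 10 mg and 577 to 655 CPM at 20 mg. The 6 intercalated cell markers summed to 392 to 482 CPM in the controls, 372 to 412 CPM at 10 mg and 373 to 388 CPM at 20 mg, the last below all controls. The 5 smooth muscle and pericyte markers went the other way, with 173 to 195 CPM in the controls, 198 to 230 CPM at 10 mg and 251 to 302 CPM at 20 mg. Both treated groups lay above all controls.

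Over the 12 libraries Avpr1a varied with the adipocyte sum (Pearson r = 0.794, permutation p = 0.00233, adjusted p = 0.0734 over 126 relations of members and marker lists; Spearman rho = 0.776, permutation p = 0.00412, adjusted p = 0.130). Without the 2 libraries farthest from the median of Avpr1a, r was 0.801. With the group means removed r was 0.545 (permutation p = 0.0762), so part of the relation was the difference between groups. Among the 8 libraries over 10% mitochondrial counts r was 0.796 (exact permutation p = 0.0195, adjusted p = 0.308), and 0.173 when their 2 farthest libraries were left out, so there it rested on those libraries. Other sums moved with Avpr1a too, though none passed after adjustment: distal convoluted tubule markers (r = 0.749, permutation p = 0.00581, adjusted p = 0.122), smooth muscle and pericyte markers (r = -0.701, permutation p = 0.0122, adjusted p = 0.153), proximal S1 and S2 markers (r = 0.619, permutation p = 0.0313, adjusted p = 0.224) and intercalated cell markers (r = 0.608, permutation p = 0.0346, adjusted p = 0.226). With the group means removed their r was 0.475, -0.206, -0.0577 and 0.164, in that order. Much of these relations was thus the difference between groups, least so for the distal convoluted tubule markers. The adipocyte sum was mostly Fabp4 (149 CPM in the controls and 89.2 CPM at 20 mg). The part of any cell type in the lower Avpr1a was not tested.

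**Figure D5:**
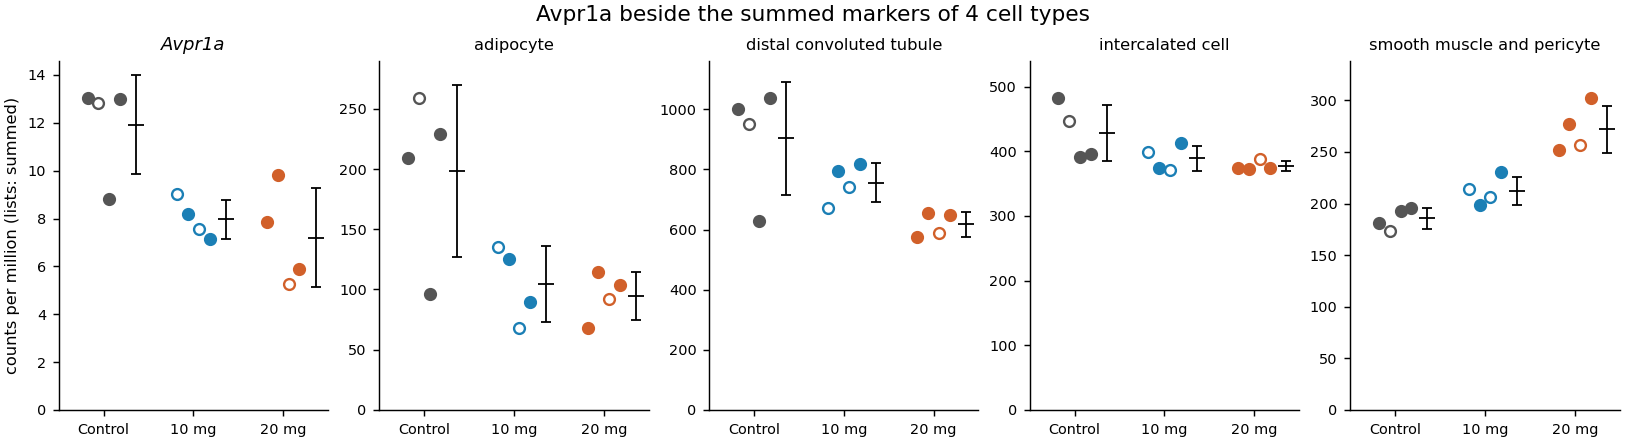
CPM of Avpr1a and summed CPM of the markers of 4 cell types in each library, with group means and SD in black and open symbols for libraries under 10% mitochondrial counts. Avpr1a, the adipocyte markers and the distal convoluted tubule markers share a low control replicate 3. Smooth muscle and pericyte markers are higher than in the controls at both doses, most at 20 mg.

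Avpr2, the receptor through which vasopressin acts on the collecting duct, was barely counted. The libraries held 6, 2, 1 and 1 counts in the controls, 12, 2, 1 and 2 at 10 mg and 1, 3, 2 and 2 at 20 mg. No change was detectable from so few counts and no fold is given. These counts are uncertain. Of the Avpr2 exon bases in GENCODE, 81.3% are also exon of Arhgap4 on the opposite strand, and the strand setting of the counting was not given in the sources used here. If strand was not used, reads from the shared bases cannot be told apart and may have been left out as ambiguous. The Avpr2 level may then be too low. Arhgap4 itself held 47 to 101 counts per library. The exons of Aqp2 and Aqp6 also overlap an antisense non-coding gene, Gm34765, over 16.6% and 14.6% of their bases, but that gene is not among those counted in the files. None of the members shared a stretch of 50 bases with any of the 16 related aquaporin, vasopressin receptor and urea transporter genes.

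Slc14a2, whose transcripts encode the UT-A urea transporters of the inner medullary collecting duct and the descending thin limb, varied most between mice. It measured 35.9, 47.6, 13.4 and 14.3 CPM in the controls, 41.8, 28.4, 10.9 and 84.0 CPM at 10 mg and 42.7, 46.1, 30.5 and 43.3 CPM at 20 mg. The 20 mg libraries were close together, and the controls and the 10 mg group held both high and low libraries. The spread within groups, an SD of 0.90 on the log2 scale, exceeded that of 98.2% of the genes tested.

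The log2 fold change of Slc14a2 was 0.57 at 10 mg and 0.55 at 20 mg (SE 0.48), with edgeR adjusted p of 0.913 and 0.828 and a 95% interval of the fold at 20 mg from 0.715 to 2.98. The exact permutation p was 0.629 at 10 mg and 0.257 at 20 mg. Single libraries moved these values, which ranged from -0.05 (without replicate 4 of the 10 mg group) to 0.95 (without control replicate 2) at 10 mg and from 0.32 to 0.93 at 20 mg. Without the libraries under 10% mitochondrial counts the values were 1.40 and 1.05 (edgeR adjusted p = 0.271 and 0.285), from 3 controls, 2 mice at 10 mg and 3 at 20 mg. Without a filter on low counts edgeR called it at both doses (0.54, adjusted p = 0.0832, and 0.53, adjusted p = 0.0879). There its SE was only 0.16, against 0.48 in the main fit, and 331 and 416 of 40012 genes were called. Over all 26 settings the adjusted p ranged from 0.0832 to 1.00 at 10 mg and from 0.0879 to 0.988 at 20 mg.

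Slc14a2 moved with markers of the inner part of the kidney. It correlated with the summed thin limb and inner medulla markers over the 12 libraries (r = 0.848, permutation p = 0.000500, adjusted p = 0.0302 over 126 relations; rho = 0.839, permutation p = 0.00120, adjusted p = 0.0756), and r was 0.782 without the 2 libraries farthest from its median and 0.933 among the 8 libraries over 10% mitochondrial counts (exact permutation p = 0.00124, adjusted p = 0.120). Those markers summed to 111, 121, 86.7 and 82.1 CPM in the controls, 82.4, 95.7, 65.2 and 141 CPM at 10 mg and 104, 106, 88.0 and 103 CPM at 20 mg, and most of the sum was Cryab (91.1 CPM in the controls). The 4 tested genes of the list had a median log2 fold change of 0.52 at 10 mg and 0.26 at 20 mg, which the sum hides, and none was called. Control replicates 3 and 4 and replicate 3 of the 10 mg group were low, and replicate 4 of the 10 mg group high, in both the gene and the markers. Replicate 1 of the 10 mg group departed from this, with low markers (82.4 CPM) and Slc14a2 at 41.8 CPM. Urothelial markers also moved with Slc14a2 (r = 0.877, permutation p = 0.000180, adjusted p = 0.0227; rho = 0.720, permutation p = 0.0108, adjusted p = 0.272; r = 0.763 without the 2 farthest libraries and 0.879, exact permutation p = 0.00707, within the 8, adjusted p = 0.178, rho = 0.595), at sums of only 0.361 to 9.30 CPM. Within the 8 it rested on the extreme libraries, with r = 0.528 without the 2 farthest. With the group means removed, r with Slc14a2 was 0.925 for the inner medulla sum and 0.905 for urothelial markers (permutation adjusted p = 0.176 for both). Thick ascending limb markers (r = 0.694, permutation p = 0.0122, adjusted p = 0.153) and proximal S1 and S2 markers (r = -0.617, permutation p = 0.0320, adjusted p = 0.224) moved with Slc14a2 too, though neither passed after adjustment.

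The thin limb and inner medulla sum, mainly a measure of Cryab, was also used as a covariate, an alternative chosen after seeing the data. With it the log2 fold change of Slc14a2 was 0.75 at 10 mg (SE 0.23) and 0.69 at 20 mg (SE 0.22). The SE was smaller than without the covariate, and the adjusted p in edgeR was 1.00 and 0.389. Aqp6 moved with the same sum (r = 0.83, permutation p = 0.000720, adjusted p = 0.0302; rho = 0.895, permutation p = 0.000200, adjusted p = 0.0252; r = 0.841 without the 2 farthest libraries and 0.753, exact permutation p = 0.0292, adjusted p = 0.363, within the 8). With the group means removed r was 0.854 for Aqp6 (permutation p = 0.00307, adjusted p = 0.176). How much inner medulla each tissue piece held was not measured, and its part in these values was not tested.

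Among the members themselves, 36 pairs were compared. Aqp2 and Slc14a2 had r = 0.502 over the 12 libraries (permutation p = 0.0965, adjusted p = 0.496) and rho = 0.455 (permutation p = 0.141). Without the 2 libraries farthest from the median of Aqp2 r was 0.563. Among the 8 libraries over 10% mitochondrial counts they rose and fell together, with r = 0.871 (exact permutation p = 0.00119, adjusted p = 0.0429) and rho = 0.976 (exact permutation p = 0.000397, adjusted p = 0.0143), and r was 0.875 without their 2 farthest libraries. In the same 8 libraries Aqp2 was related to the inner medulla sum much as Slc14a2 was (r = 0.916, exact permutation p = 0.00191, adjusted p = 0.120; r = 0.333 over all 12), so a joint move with the tissue held and a shared regulation cannot be told apart. Aqp2 and Aqp3 are given only within those 8 libraries, because Aqp3 separated by mitochondrial share over all 12, and had r = 0.680 (exact permutation p = 0.0596, adjusted p = 0.585; rho = 0.619, exact permutation p = 0.115), and 0.383 without their 2 farthest libraries. Aqp6 and Slc14a2 had r = 0.643 over the 12 libraries (permutation p = 0.0250, adjusted p = 0.210; rho = 0.692, permutation p = 0.0159), 0.720 without the 2 farthest from the median of Aqp6, and 0.680 within the 8 (exact permutation p = 0.0650).

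The genes most like each member, by Pearson r of log2 CPM over the 12 libraries with group means removed, were sought among 14675 others. For Slc14a2 they were Egfl6 (0.960), Psca (0.916) and Cryab (0.916), the last a marker of the inner medulla list. Aqp2 was most like Fam174b (0.965), Tmem35a (0.958) and Ndrg2 (0.957). Avpr1a had weaker matches in Klhl23 (0.886), Arl4c (0.865) and Rspo3 (0.850), as had Aqp1 in Slc9a4 (0.873), Csf2rb2 (0.840) and Afm (0.837). The remaining members matched Garin5a (0.949), Rasl11b (0.941) and Zdhhc23 (0.926) for Aqp6, Cbx7 (0.970), Shld1 (0.943) and Tmem138 (0.920) for Aqp7, and Gtf2e2 (0.964), Pomt1 (0.959) and Eya3 (0.945) for Aqp11. Aqp3 and Aqp4 are left out because they differed with the mitochondrial share, Aqp3 without overlap and Aqp4 with overlap. Aqp2 differed with it too, also with overlap, and is kept. For the listed members, high values arise easily with so many genes, 12 libraries and a share that moves 37.0% of genes. These values are given as a description.

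Of 84 further genes of water balance, 77 passed the filter on low counts, and edgeR called 0 at 10 mg, 1 at 20 mg, 0 between doses and 0 for the mean of both doses. At an unadjusted p under 0.05 the counts were 6, 4, 3 and 5 of 77, near the background given above for all genes. DESeq2 called the same gene at 20 mg and for the mean of both doses and limma-voom called none. The median log2 fold change was 0.04 at 10 mg and 0.03 at 20 mg, beside 0.01 over all genes at both. The called gene was Prkar2b, a regulatory subunit of the cAMP-dependent kinase that is also abundant in fat, 1 of 15 genes of V2 receptor cAMP signalling. It measured 3.36, 4.96, 2.77 and 6.20 CPM in the controls, 1.58 to 3.56 CPM at 10 mg and 1.58, 1.86, 1.44 and 1.69 CPM at 20 mg. All 4 libraries at 20 mg lay below all controls, at 24 to 31 counts against 55 to 114.

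Prkar2b fell by 1.39 on the log2 scale at 20 mg (SE 0.29, edgeR adjusted p = 0.0897) and was at -0.74 at 10 mg (SE 0.28, edgeR adjusted p = 0.812). The call at 20 mg was held under 14 of 26 settings, with adjusted p from 0.000285 to 0.323. It was lost in 9 of 12 fits without 1 library, namely those without control replicates 1, 2 or 4, without replicates 1 or 4 of the 10 mg group and without any of the 20 mg replicates, with log2 fold changes between -1.55 and -1.17 over all 12. Adipocyte markers were lower in the same libraries. Adipoq, the most specific of them, had 10.5, 19.2, 1.06 and 14.5 CPM in the controls and 0 to 2.60 CPM at 20 mg. The part of fat tissue in the Prkar2b value was not tested.

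The other lists held no called gene. Of 5 further aquaporins only Aqp8 passed the filter, at 0.858 to 0.949 CPM in 3 and 0.587 CPM in 1 of the 10 mg libraries, all below the controls at 1.13 to 1.52 CPM. Its log2 fold change was -0.68 at 10 mg (SE 0.28, edgeR adjusted p = 0.812) and -0.06 at 20 mg. Mip, Aqp5, Aqp9 and Aqp12 held fewer than 10 counts in every library. Among 20 genes of Aqp2 vesicle traffic and turnover, the smallest p at 20 mg was that of the vesicle motor Myo5b (log2 fold change -0.34, SE 0.17, edgeR adjusted p = 0.633), and the most abundant was the chaperone Hspa8 at 670 TPM in the controls.

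In the 12 collecting duct transcription factors the smallest p was that of the bile acid receptor Nr1h4 (0.26, SE 0.14, edgeR adjusted p = 0.665), and the most abundant was Tfcp2l1 (113 TPM). Among 8 osmolyte and tonicity genes it was Hspa4l (-0.30, SE 0.19, edgeR adjusted p = 0.722), with the taurine transporter Slc6a6 most abundant (134 TPM). Among 17 local modulators, of which 14 passed the filter, it was the endothelial nitric oxide synthase Nos3 (0.53, SE 0.19, edgeR adjusted p = 0.446), and the most abundant was Lnpep, an aminopeptidase that cleaves vasopressin (19.7 TPM). In the 7 genes of urea and salt transport it was Slc12a2 (-0.30, SE 0.16, edgeR adjusted p = 0.650), and the most abundant was Slc12a1, the salt transporter of the thick ascending limb (439 TPM). The most abundant gene of V2 receptor cAMP signalling was Gnas, the stimulatory G protein subunit (78.6 TPM).

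The cell type markers describe the tissue in the libraries, though their sums do not measure how many cells of a type were present. Markers of the principal cells that express Aqp2 overlapped between the groups, with sums of 126 ± 19.2 CPM in the controls, 128 ± 22.8 CPM at 10 mg and 136 ± 13.5 CPM at 20 mg, the most abundant per length being Hsd11b2 (101 TPM). Hsd11b2 made up much of the sum (62.9 CPM in the controls), and the median log2 fold change of the 5 markers was 0.20 at 10 mg and 0.08 at 20 mg, with none called. Proximal tubule S1 and S2 markers, led by Slc34a1 (1656 TPM), summed to 7197 ± 838 CPM in the controls, 6030 ± 547 CPM at 10 mg and 5518 ± 222 CPM at 20 mg, and both treated groups lay below all controls. In this list edgeR called Slc5a2 at 20 mg (fell by 0.61 on the log2 scale, SE 0.12, adjusted p = 0.0820), a call held in 4 of 12 fits without 1 library. DESeq2 called Lrp2 of the same list as well (adjusted p = 0.00534). S3 markers, led by Slc7a13 (1214 TPM), summed to 2168 ± 52.1, 2984 ± 614 and 2260 ± 563 CPM in the control, 10 mg and 20 mg groups. The 10 mg group lay above all controls, and the treated libraries with few mitochondrial counts were the highest.

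Thick ascending limb markers, led by Umod (603 TPM), summed to 1511 ± 279, 1895 ± 461 and 1520 ± 212 CPM in the control, 10 mg and 20 mg groups. Thin limb and inner medulla markers, led by Cryab (61.8 TPM), were at 100.3 ± 18.9, 96.1 ± 32.5 and 100.1 ± 8.21 CPM. Distal convoluted tubule markers, led by Slc12a3 (168 TPM), were at 904 ± 188, 756 ± 64.6 and 617 ± 40.4 CPM, and intercalated cell markers, led by Atp6v1g3 (231 TPM), at 429 ± 43.3, 389 ± 19.5 and 377 ± 7.40 CPM. edgeR called 0 genes of these 4 lists in all comparisons, while at an unadjusted p under 0.05 it had 2 of the distal convoluted tubule and 2 of the intercalated cell list at 20 mg. DESeq2 called Calb1 of the distal convoluted tubule list at 20 mg (adjusted p = 0.0118) and limma-voom none. Sptssb of the inner medulla list did not pass the filter.

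Outside the tubule, edgeR called Myh11 of the smooth muscle and pericyte list at 20 mg (log2 fold change 0.71, SE 0.14, adjusted p = 0.0760), a call held in 3 of 12 fits without 1 library. That list, led by Rgs5 (34.5 TPM), summed to 186 ± 10.4, 212 ± 13.6 and 272 ± 22.9 CPM in the control, 10 mg and 20 mg groups. Podocyte markers (Podxl, 158 TPM) were at 442 ± 22.3, 406 ± 29.2 and 473 ± 66.3 CPM, and endothelial markers (Plvap, 128 TPM) at 527 ± 23.3, 540.2 ± 56.0 and 587 ± 54.9 CPM. Adipocyte markers (Cfd, 108 TPM) were at 198 ± 71.2, 105 ± 31.3 and 94.5 ± 19.9 CPM, with Lep under the filter. Fabp4 dominated that sum, and the median log2 fold change of the 4 tested adipocyte markers was -1.62 at 10 mg and -2.84 at 20 mg. Erythroid markers (Hba-a1, 998 TPM) were at 1088 ± 376, 853 ± 259 and 1127 ± 453 CPM. Leukocyte markers (Cd68, 6.08 TPM) were at 18.1 ± 1.61, 17.0 ± 2.42 and 17.1 ± 2.48 CPM, and urothelial markers (Upk1a, 3.04 TPM) at 3.95 ± 3.71, 4.74 ± 3.54 and 3.77 ± 0.491 CPM. edgeR called 0 genes of these other lists. All 4 tested adipocyte markers had an unadjusted p under 0.05 at 20 mg, and DESeq2 called 1 of them, Fabp4 (adjusted p = 0.0760).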

How the data were processed

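The values are the deposited gene counts of the authors, an unnormalized table per library. Per the authors, reads of directional CORALL libraries were checked with FastQC 0.11.9, trimmed with Flexbar, aligned to GRCm39 with STAR 2.7.5c and counted with HTSeq 1.99.2. The annotation release and the strand setting of the counting were not given in the sources used here. Summary lines of HTSeq were left out (12.1% to 19.9% without a feature, 4.72% to 5.29% ambiguous). Symbols came from GENCODE vM39, which matched 99.0% of identifiers.

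Genes were filtered with filterByExpr, scaled by TMM and tested with edgeR 4.0.16 (R 4.3.3) quasi-likelihood fits over all 12 libraries, two-sided, with Benjamini-Hochberg adjustment over 17163 genes and a threshold of 0.1. Permutation tests of 4 against 4 mice were exact and two-sided. Correlations used log2 CPM with a prior count of 2 and 100000 permutations, and those with marker sums were added after the data were seen. TPM used the union of exons. The alternatives were DESeq2 1.42.0, limma-voom (limma 3.58.1), other scalings and filters, covariates, the replicate number as a block, and fits without single libraries or without the 4 libraries under 10% mitochondrial counts. A covariate, the thin limb and inner medulla markers, was chosen after seeing the data.

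Genes are named if they are members, are called in the water balance or marker lists, have the smallest p at 20 mg or the highest TPM in a list, are alike to a member or overlap it, or did not pass the filter. Aqp8 and Adipoq were added after their values were seen. The members and the lists were chosen with earlier results of these data known. The edgeR fit and the code for correlations and permutations were tested on simulated data. DESeq2 and limma-voom, used as alternatives only, were not.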

Additional observations from a re-analysis of the deposited data

Results flagged for a closer look

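Dixon's test compared the library farthest from the rest with the other 3 in each of 69 groups of 4 libraries, and 4 were marked, where chance flags about 1 in 20 groups. Aqp2 in control replicate 2 was 109 CPM, against 42.1 to 53.1 CPM in the other controls. Avpr1a in control replicate 3 was 8.81 CPM, against 12.8 to 13.0 CPM. The summed intercalated cell markers in replicate 3 of the 20 mg group were 388 CPM, against 373 to 374 CPM, and the summed podocyte markers in replicate 2 of that group 572 CPM, against 435 to 447 CPM. All 4 libraries were kept.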

How the results depend on the processing

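No member was called in any edgeR fit without a single library or between the doses under any setting. Without a filter on low counts, edgeR called 2 members at 10 mg, Aqp6 (adjusted p = 0.0852) and Slc14a2, among 331 of 40012 genes. It called 2, Avpr1a and Slc14a2, at 20 mg (among 416 genes) and for the mean of both doses (among 393). The main fit called 5, 52 and 24 genes in these comparisons. At 20 mg and for the mean of both doses, 1 member, Avpr1a, was called under 3 more settings. These were DESeq2 (among 167 and 117 genes), the mitochondrial share as a covariate (1386 and 276) and low share as a factor (293 and 125). Of 519 member fold changes under 26 settings, 22 turned their sign, none of them called. Log2 fold changes that turned were, at 10 mg, Aqp1 without the libraries under 10% mitochondrial counts (0.0122), control replicate 4 (0.00269) or replicate 1 of the 10 mg group (0.0180), Aqp4 without the libraries under 10% (0.42) or replicates 1 (0.132) or 3 (0.0129) of the 10 mg group, Slc14a2 without replicate 4 of that group (-0.0451), and Aqp7 with limma-voom (-0.00112), without a filter (-0.0163), with the principal cell covariate (-0.00377), without control replicate 3 (-0.0202) or replicates 3 (-0.0383) or 4 (-0.0553) of the 10 mg group. At 20 mg they were Aqp2 (-0.0665) and Aqp3 (-0.165) without replicate 3 of that group, Aqp6 without the libraries under 10% (0.0402) or control replicates 1 (0.0236) or 2 (0.0341), and Aqp7 with the principal cell covariate (-0.00244), without the libraries under 10% (-0.00811) or replicates 2 (-0.0117) or 3 (-0.0142) of the 20 mg group. Over the fits without a single library the log2 fold change ranged, at 10 mg, from -0.0910 to 0.0180 for Aqp1, -0.395 to 0.132 for Aqp4, -0.0553 to 0.0887 for Aqp7 and -0.0451 to 0.953 for Slc14a2, and at 20 mg from -0.0665 to 0.652 for Aqp2, -0.165 to 0.318 for Aqp3, -0.349 to 0.0341 for Aqp6 and -0.0142 to 0.119 for Aqp7. Genes called among all tested ranged, in fits without a single library, from 2 to 8 at 10 mg, 14 to 54 at 20 mg, 0 to 0 between doses and 8 to 35 for the mean of both doses, and under the other settings from 3 to 331, 25 to 1386, 0 to 256 and 17 to 393. With the replicate number as a block 0 members were called, and 4, 27, 0 and 17 of all genes. Libraries of equal number did not pair: their 12 correlations ran from -0.33 to 0.32 (median 0.03), and 4 were over 0.1.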
